A study of Mus musculus with 6 samples.

Results

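The genes of the zinc-dependent histone deacetylases other than *Hdac3* were analyzed in neural stem cells (NSCs) that carried a floxed *Tbl1xr1* gene. The cells received either Cre-GFP (called Cre below) or GFP alone. The members were the rows of the deposited expression table whose gene name was *Hdac1*, *Hdac2*, *Hdac4*, *Hdac5*, *Hdac6*, *Hdac7*, *Hdac8*, *Hdac9*, *Hdac10* or *Hdac11*, which are 10 of the 53379 genes in the table. They form class I (*Hdac1*, *Hdac2* and *Hdac8*), class IIa (*Hdac4*, *Hdac5*, *Hdac7* and *Hdac9*), class IIb (*Hdac6* and *Hdac10*) and class IV (*Hdac11*). *Hdac3*, the remaining class I gene, is given for reference only.

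NSCs are dividing cells of the developing brain that can give rise to neurons and glia. They were taken from the telencephalic cortex of mouse embryos at E14.5 and grown as floating neurospheres with EGF and bFGF. All of them were *Tbl1xr1* flox/flox, with LoxP sites around the fifth exon, so the GFP cells carried the floxed allele too. Total RNA was sequenced in 3 libraries of cells infected with GFP (replicates 1, 1_1 and 2) and 3 of cells infected with Cre (replicates 2, 2_2 and 3). The viruses were lentiviral, and the paper describes sorting of GFP-positive cells after infection with either virus. The labels leave unsaid if GFP 1 shares its culture, embryo or infection with GFP 1_1, or Cre 2 with Cre 2_2. P-values therefore measure the spread between these libraries, which may be partly technical. Whether a replicate number stands for the same culture or embryo in both groups is also unsaid, and the groups share only number 2. A difference between cultures or embryos could therefore not be fully told apart from one between Cre and GFP.

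Histone deacetylases remove acetyl groups from lysines of histones and other proteins, and acetylation of histone tails goes with open, transcribed chromatin. *Hdac1*, *Hdac2* and *Hdac3* are the catalytic subunits of corepressor complexes (Sin3, NuRD, CoREST and MiDAC for the first pair, NCoR/SMRT for *Hdac3*), and *Tbl1xr1* is a subunit of the NCoR/SMRT complex. *Hdac8* acts outside these complexes, the class IIa enzymes have little catalytic activity of their own and move between nucleus and cytoplasm, the class IIb enzymes *Hdac6* and *Hdac10* act largely in the cytoplasm, and *Hdac11* removes long fatty acyl groups from lysines. In neural progenitors *Hdac1* and *Hdac2* are known for their part in the step from dividing progenitor to neuron.

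The values are normalized counts, that is, reads per gene divided by 1 size factor per library. The libraries held 7510615 to 11161497 reads on genes with GFP and 11893230 to 14828100 with Cre. *Tbl1xr1* itself had 2522, 2190 and 2721 normalized counts in GFP 1, 1_1 and 2 and 3774, 3463 and 2905 in Cre 2, 2_2 and 3, a difference of +0.45 on the log2 scale (adjusted p = 0.0600, limma). It passed as higher with Cre in DESeq2 (adjusted p = 0.0398) and without Cre 3 (0.0234, limma). This count covers the whole gene and not the floxed exon alone, so it does not check the deletion, and it was not lower in the cells that received Cre. The groups are therefore called the libraries labelled GFP and labelled Cre. The study checked the deletion by other means, which are not reported here. All 12 neural stem cell markers were tested, and their summed level was 46634 to 50657 normalized counts in the libraries labelled GFP and 51061 to 55652 in those labelled Cre. The sum joins opposite moves, with 8 log2 fold changes above 0 and 4 below. *Sox9* had means of 4272 with GFP and 8657 with Cre, and *Nes* had 6229 and 3435. *Tmem119* and *C1qa* of microglia, *Cldn5* and *Cdh5* of endothelium, and 2 of 6 mesenchymal markers were at 0 in every library. Other markers of these lists were read, among them *Csf1r* of microglia at 154 to 264 normalized counts over the 6 libraries and *Kdr* of endothelium at 16.0 to 34.0 with GFP and 6.93 to 10.3 with Cre.

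Of the 10 deacetylase genes, 1 was higher in the libraries labelled Cre (*Hdac8*) and 1 was lower (*Hdac11*), as log2(normalized count + 1) compared with limma and adjusted over all genes tested with a threshold of 0.05. *Hdac11* was 4.40-fold lower and *Hdac8* was 1.56-fold higher. The other 8 genes did not pass. They had log2 fold changes between -0.64 and 0.19, and their lowest adjusted p was 0.116. The 2 called genes are 20% of the members, and 9.96% of the 14840 tested genes were called (4.74% higher and 5.22% lower). The same members were called by edgeR and DESeq2 on the recovered reads, beside 9.99% and 11.8% of all genes. All 10 members passed the filter, a mean of at least 10 normalized counts over the 6 libraries. In 5 members the 3 libraries labelled Cre lay wholly on 1 side of the 3 labelled GFP, *Hdac8* above and *Hdac1*, *Hdac2*, *Hdac9* and *Hdac11* below, and such a separation was found in 30.3% of all tested genes. An unadjusted p under 0.05 was found for 4 members, and for 25.5% of all tested genes. The median log2 fold change of the 10 members was -0.13, beside -0.0010 over all tested genes.

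**Figure D1:**
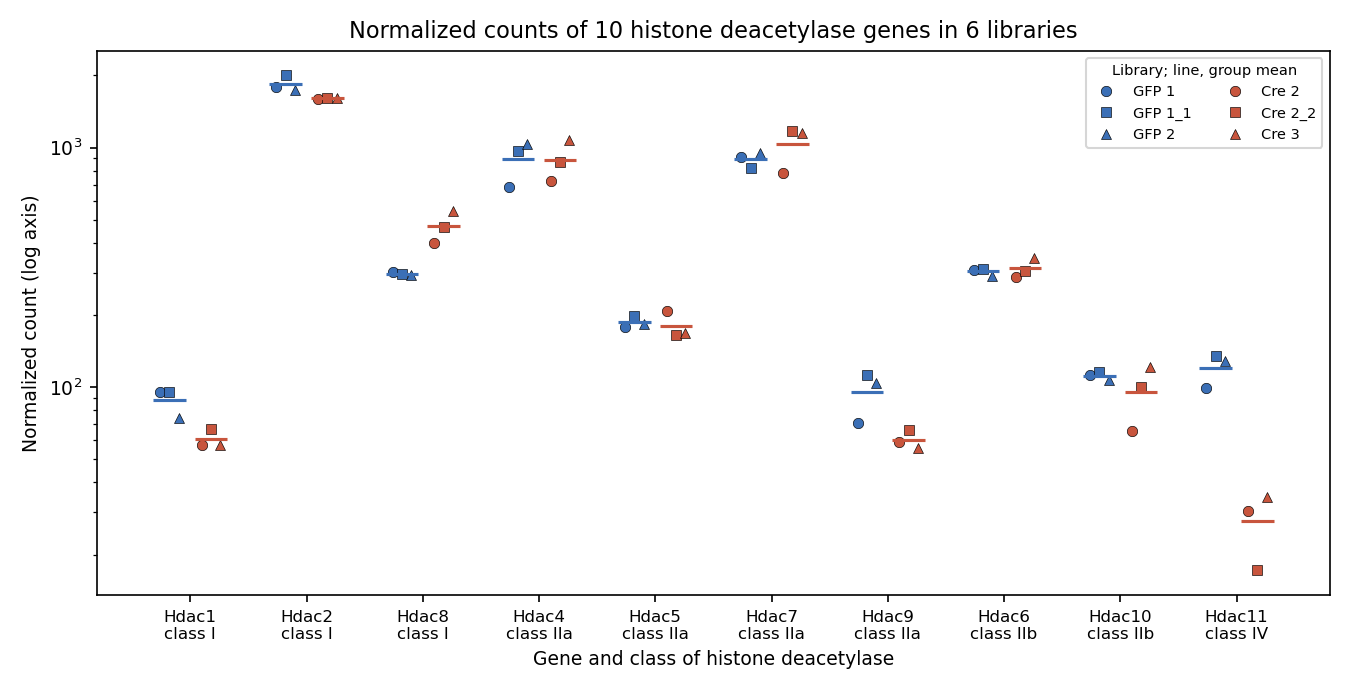
Normalized counts (log axis) of the 10 deacetylase genes, ordered by class, with a point for each of the 3 libraries labelled GFP (blue) and the 3 labelled Cre (red) and a line at each group mean. *Hdac11* falls from 99.1 to 135 normalized counts to 17.2 to 34.9, *Hdac8* rises from 293 to 304 to 399 to 543, and the points of *Hdac4*, *Hdac5*, *Hdac6*, *Hdac7* and *Hdac10* overlap between the groups.

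**Figure D2:**
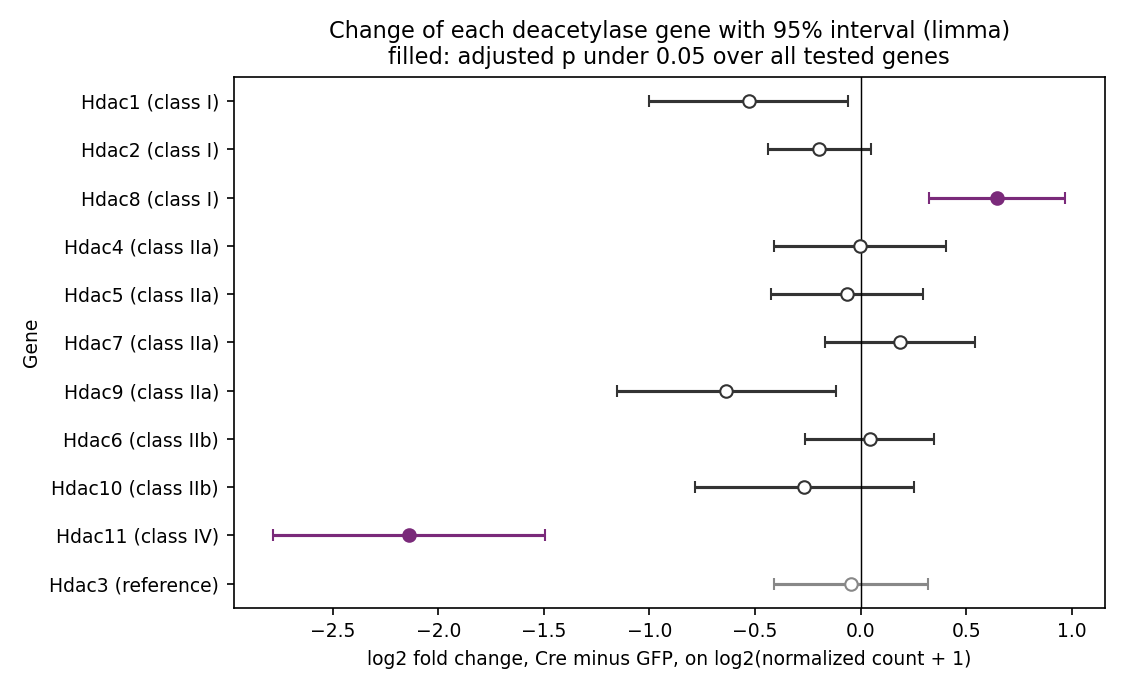
Log2 fold change of each gene (labelled Cre minus labelled GFP, on log2(normalized count + 1)) with its 95% interval from limma, filled where the adjusted p is under 0.05. The intervals of *Hdac8* (0.32 to 0.97) and *Hdac11* (-2.78 to -1.49) lie well away from 0, and those of *Hdac1* and *Hdac9* end just below 0 although neither gene passed the adjusted threshold.

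Within class I only *Hdac8* passed, with a value above 0, while *Hdac1* and *Hdac2* had values below 0 and did not pass. Differences between the changes of the 3 genes were not tested. *Hdac1* and *Hdac2* are close relatives that occupy the same complexes, and their coding sequences were 78.8% identical. *Hdac1* (ENSMUSG00000028800, chr4:129516104-129542646 in GRCm38.p6) had 95.4, 95.1 and 74.7 normalized counts in GFP 1, 1_1 and 2 and 57.5, 67.1 and 57.3 in Cre 2, 2_2 and 3. Every library labelled Cre was below every library labelled GFP, but the difference of -0.53 ± 0.22 (SE) on the log2 scale did not pass (adjusted p = 0.147, limma, n = 3 and 3). As a fold, its 95% interval ran from 1.04-fold to 2.01-fold lower.

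Most of the *Hdac1* mRNA also matches a second place in the genome. A processed copy of its mRNA, *Gm10093* (named *Hdac1-ps* and annotated as a pseudogene in RefSeq), lies at chr17:78491565-78493541 in GRCm38.p6. Of the 50-base stretches of the main *Hdac1* transcript, 1520 of 1989 (76.4%) also occur elsewhere in the mm9 genome, and 73.8% occur in the copy. For each of the other 9 members, and for *Hdac3*, none did. The coding sequences of *Hdac1* and its copy differ at 9 of 1449 aligned bases, without a gap, and share an unbroken identical run of 450 bases. The 60-base stretch with most differences, coding positions 423 to 482 counted from the first base of the start codon, is shown here for both genes as GENCODE M1 has it, since within it reads can be told apart only at the 5 bases in capitals.

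Hdac1: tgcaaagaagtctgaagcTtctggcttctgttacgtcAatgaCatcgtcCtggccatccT
Gm10093: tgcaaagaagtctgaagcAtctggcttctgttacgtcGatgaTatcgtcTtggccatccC

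How the authors' counting treated reads that match both places is not given in the sources used here. It is therefore uncertain how reads were split between the pair, or if such reads were left out. Reads left out would be missing from both counts and from their sum, so the level of *Hdac1* may be understated. *Gm10093* had 106, 68.8 and 64.0 normalized counts in the libraries labelled GFP and 63.7, 72.3 and 56.4 in those labelled Cre (log2 fold change -0.28, adjusted p = 0.531, limma), and its groups overlap. With both counts summed, *Hdac1* and its copy had 202, 164 and 139 against 121, 139 and 114. The log2 fold change of the sum was -0.42 ± 0.19 (SE, adjusted p = 0.202, limma).

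*Hdac2* (ENSMUSG00000019777, chr10:36974297-37001889) was the most abundant member. It had 1788, 1998 and 1735 normalized counts in the libraries labelled GFP and 1596, 1609 and 1604 in those labelled Cre, which differed from each other by 0.397% (coefficient of variation). With 2305, 1869 and 1791 reads, counting alone would be expected to spread the values labelled Cre more than this. The groups did not overlap, and the log2 fold change was -0.20 ± 0.11 (SE, adjusted p = 0.299, limma, n = 3 and 3), with an interval from -0.44 to 0.05. The ratio of *Hdac1* to *Hdac2* reads, which does not depend on the size factors, was 0.0480 ± 0.0052 (SD, n = 3) in the libraries labelled GFP and 0.0378 ± 0.0034 in those labelled Cre. These ratios did not overlap, and the exact two-sided permutation p was 0.1, the smallest that 3 against 3 libraries allow. With the copy added to *Hdac1* the ratios overlapped, at 0.0916 ± 0.0185 and 0.0778 ± 0.0081 (exact permutation p = 0.4).

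*Hdac8* (ENSMUSG00000067567, chrX:102284638-102505381) deacetylates the cohesin subunit Smc3 and is a class I enzyme that works alone. It had 304, 295 and 293 normalized counts in GFP 1, 1_1 and 2, a spread of 1.84% (coefficient of variation). With 331, 202 and 220 reads, counting alone would be expected to spread values more than this, so their closeness says little about uniformity. In Cre 2, 2_2 and 3 *Hdac8* had 399, 467 and 543, so every library labelled Cre was above every one labelled GFP, and the 3 were spread more widely, by 15.4%. The difference was 0.65 ± 0.15 on the log2 scale (SE, adjusted p = 0.0191, limma, n = 3 and 3), a 1.56-fold rise with an interval from 1.25 to 1.96.

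The call of *Hdac8* was less stable than its size. It was lost when GFP 1 and 1_1 were averaged into 1 library (adjusted p = 0.0703) and without GFP 1 (0.0801), GFP 1_1 (0.0708), GFP 2 (0.0804) or Cre 2_2 (0.0728), all by limma. Over 16 alternatives the log2 fold change stayed between 0.53 and 0.76, and the gene was called in 11 of them. Within each library, *Hdac8* reads were 0.162 ± 0.0125 (SD, n = 3) of *Hdac2* reads with GFP and 0.293 ± 0.0446 with Cre, a ratio chosen after its values were seen. *Hdac3* had 249, 263 and 193 normalized counts against 244, 216 and 218 (log2 fold change -0.05, adjusted p = 0.892, limma), and its groups overlap. An antisense RNA that overlaps *Hdac8*, *Gm14858*, shares no exon base with it and had at most 1.33 normalized counts in any library.

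None of the 4 class IIa genes passed with limma, edgeR or DESeq2, and 1 (*Hdac9*) had an unadjusted p under 0.05. These enzymes bind MEF2 transcription factors in the nucleus, and kinases of the CaMK, Sik and Prkd families send them to the cytoplasm. *Hdac9* (ENSMUSG00000004698, chr12:34047580-34917095) had 70.7, 113 and 104 normalized counts in the libraries labelled GFP and 58.9, 66.3 and 55.5 in those labelled Cre. The groups did not overlap, but GFP 1 was near the libraries labelled Cre and the difference of -0.64 ± 0.24 (SE) did not pass (adjusted p = 0.116, limma). This log2 difference is close in size to that of *Hdac8*, in a gene with 62 to 85 reads per library, where *Hdac8* had 202 to 607.

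*Hdac7* (chr15:97792661-97844502) had 915, 822 and 951 normalized counts with GFP and 780, 1173 and 1153 with Cre. Cre 2 lay below all 3 libraries labelled GFP and the other two labelled Cre above them, and the log2 fold change was 0.19 (interval -0.17 to 0.54, adjusted p = 0.516, limma). *Hdac7* shares 29 exon bases with *Slc48a1* on the opposite strand, and the library kit does not mark strand, so reads there cannot be told apart. *Hdac4* (chr1:91928779-92195702) had 683, 968 and 1035 with GFP and 723, 869 and 1080 with Cre. Its log2 fold change was -0.0043 (interval -0.41 to 0.40, adjusted p = 0.992, limma), with a wide spread in both groups. It shares 132 exon bases with *Gm17418* on the opposite strand, whose level was not analysed here. *Hdac5* (chr11:102195747-102230172) had 179, 199 and 184 against 207, 165 and 167. Its groups overlap, at a log2 fold change of -0.06 (interval -0.42 to 0.29, adjusted p = 0.845, limma).

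The class IIb genes also passed with none of these tools, and neither had an unadjusted p under 0.05. *Hdac6* (chrX:7930116-7948047), which deacetylates tubulin in the cytoplasm, had 309, 310 and 292 normalized counts with GFP and 289, 305 and 347 with Cre. The log2 fold change was 0.04, and its interval, -0.26 to 0.35, was the narrowest of the genes whose groups overlapped. *Hdac10* (chr15:89123303-89128700), a polyamine deacetylase, had 113, 116 and 107 with GFP and 65.8, 99.9 and 121 with Cre. Its libraries labelled Cre lay on both sides of those labelled GFP, and the log2 fold change of -0.27 had an interval from -0.78 to 0.25 (adjusted p = 0.524, limma).

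*Hdac11* (ENSMUSG00000034245), the only class IV gene, lies at chr6:91156670-91174692 on the plus strand of GRCm38.p6. It had 99.1, 135 and 128 normalized counts in GFP 1, 1_1 and 2 and 30.5, 17.2 and 34.9 in Cre 2, 2_2 and 3. The highest library labelled Cre was far below the lowest labelled GFP. These counts rest on 108, 92 and 96 reads with GFP and 44, 20 and 39 reads with Cre, although the libraries labelled Cre were the deeper ones. The difference was -2.14 ± 0.29 on the log2 scale (SE, adjusted p = 0.00138, limma, n = 3 and 3), a 4.40-fold fall with an interval from 2.81 to 6.87. *Hdac11* was called under all 16 alternatives, with a log2 fold change between -2.33 and -1.84 and a highest adjusted p of 0.0159.

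An antisense transcript, *Gm14573*, shares 96 exon bases with *Hdac11* and had no read counted to it in any library. The library kit does not mark strand, so reads in these shared bases cannot be told apart. The 105 bases just before the annotated start of *Hdac11* are shown because this is the member with the largest change. They are from RefSeq (GRCm38.p6, chr6:91156565-91156669, plus strand), and the capitals mark a GC box (GGGCGG) and a CCAAT box, which is on the minus strand and reads ATTGG here.

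Hdac11: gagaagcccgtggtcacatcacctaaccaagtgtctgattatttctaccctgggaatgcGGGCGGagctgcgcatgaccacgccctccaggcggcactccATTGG

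Both motifs are common, since 35.7% of 32851 RefSeq promoter windows of 300 bases held the GC box on either strand and 37.4% held the CCAAT box. The whole *Hdac11* window had 66.7% G and C with 22 CpG. The window of *Hdac8* had 49.7% G and C with 6 CpG, no GC box and 2 CCAAT boxes. Over all windows the medians were 52.7% and 7 CpG. Windows were given for 8 of the 10 members, and not for *Hdac1* and *Hdac10*. The 12 windows of these members ran from 44% to 73.7% G and C and from 0 to 36 CpG. Members that were not called held both ends of both ranges.

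Over the 6 libraries, the genes whose pattern was most like that of *Hdac11* were *Foxo6*, a forkhead transcription factor, *Diras2*, a small GTPase of the Ras family, and *Thrsp*, which is linked to fatty acid synthesis. Likeness was the Euclidean distance between log2 values centred on each gene's mean, among 11134 genes with a mean of at least 50 normalized counts. The distances were 0.394, 0.463 and 0.468. *Foxo6* had 136, 199 and 141 normalized counts with GFP and 33.9, 22.4 and 49.2 with Cre. Like *Hdac11*, it was lowest in Cre 2_2 and highest in GFP 1_1. Because these genes were chosen for their likeness, their own fall is no separate support.

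Several marker lists moved with the same 2 groups. Of 12 genes of cycling cells, 6 were lower and 0 higher in the libraries labelled Cre, where 5.22% of all tested genes were lower and 4.74% higher, and all 12 were below 0, with a median log2 fold change of -0.66. The 6 were *Mcm2*, *Mcm3*, *Mcm4*, *Mcm5*, *Mcm7* and *Rrm2*. By limma, *Mki67* (-0.17, adjusted p = 0.379), *Top2a* (-0.25, 0.258), *Ccnb1* (-0.14, 0.782) and *Cdk1* (-0.68, 0.122) did not pass, nor did *Mcm6* and *Pcna*. The summed level of the 12 genes was 34060 to 37651 normalized counts with GFP and 25319 to 28565 with Cre. Of 8 tested astrocyte markers (of 10 listed), 4 were higher and 0 lower. The 4 were *S100b* (means of 238 with GFP and 2064 with Cre, log2 fold change 3.10), *Aqp4* (1.64), *Slc1a2* (1.16) and *Glul* (0.52). The summed level was 10815 to 11999 with GFP and 14132 to 14673 with Cre, and *S100b* had the largest rise in counts among these markers. The defining marker *Gfap* was at means of 1.82 and 4.73. *Aldh1l1*, also an astrocyte marker, was at means of 17.3 with GFP and 5.35 with Cre (log2 fold change -1.65, adjusted p = 0.0650, limma), and 1 lower marker was called without Cre 2. The oligodendrocyte lineage list had 7 tested markers of 11, with 3 higher (*Olig2*, *Pdgfra* and *Cspg4*) and 0 lower. Its summed level was 12905 to 14833 with GFP and 17822 to 20126 with Cre. Most of that sum was *Olig1* (means of 7872 and 8952, not called) and *Olig2* (5157 and 8380). *Sox10* was at means of 2.60 and 5.45, *Mbp* at 7.23 and 13.9 and *Myrf* at 5.15 and 4.74. The cycling count was 2 without GFP 1 or GFP 2 and 3 without Cre 2_2, the astrocyte count was 2 without GFP 1, GFP 1_1 or Cre 2_2, and the oligodendrocyte lineage count was 1 without GFP 2. Of 12 neural stem cell markers 1 was higher (*Sox9*) and 1 lower (*Nes*), and of 8 tested neuron markers 1 was higher (*Elavl4*). The 1 tested marker each of microglia and endothelium did not pass, and no mesenchymal marker reached the filter. The part of these shifts in the values of *Hdac8* and *Hdac11* was not tested. In bulk samples, fewer cells of a type and less RNA per cell cannot be told apart.

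Levels of different genes were compared per kilobase of exon (GENCODE M1 gene models). In the libraries labelled GFP the order was *Hdac2* with 411 ± 31.1 normalized counts per kb (SD, n = 3), *Hdac4* with 219 ± 45.7, *Hdac7* with 162 ± 12.02, *Hdac8* with 61.5 ± 1.13, *Hdac6* with 52.2 ± 1.75, *Hdac10* with 33.0 ± 1.34, *Hdac11* with 31.3 ± 4.90, *Hdac1* with 25.7 ± 3.45, *Hdac5* with 21.3 ± 1.18 and *Hdac9* with 9.97 ± 2.31. *Hdac3* would stand between *Hdac8* and *Hdac6*, at 58.4 ± 9.16. Neighbours whose ranges overlapped were *Hdac4* and *Hdac7*, *Hdac10* and *Hdac11*, *Hdac11* and *Hdac1*, and *Hdac1* and *Hdac5*, and *Hdac3* overlapped both of its neighbours, so their order is not resolved by these libraries. In the libraries labelled Cre, *Hdac11* had 7.15 ± 2.39 and went from place 8 to place 10 of the 11 genes, just above *Hdac9* at 6.27 ± 0.574, with ranges that overlap. The order also depends on the length used. Over all 6 libraries *Hdac8* stood at place 4 per kb of exon or of the longest transcript and at place 2 per kb of coding sequence. The place of *Hdac1* is also uncertain, given the reads that it may share with its copy or that may have been left out.

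**Figure D3:**
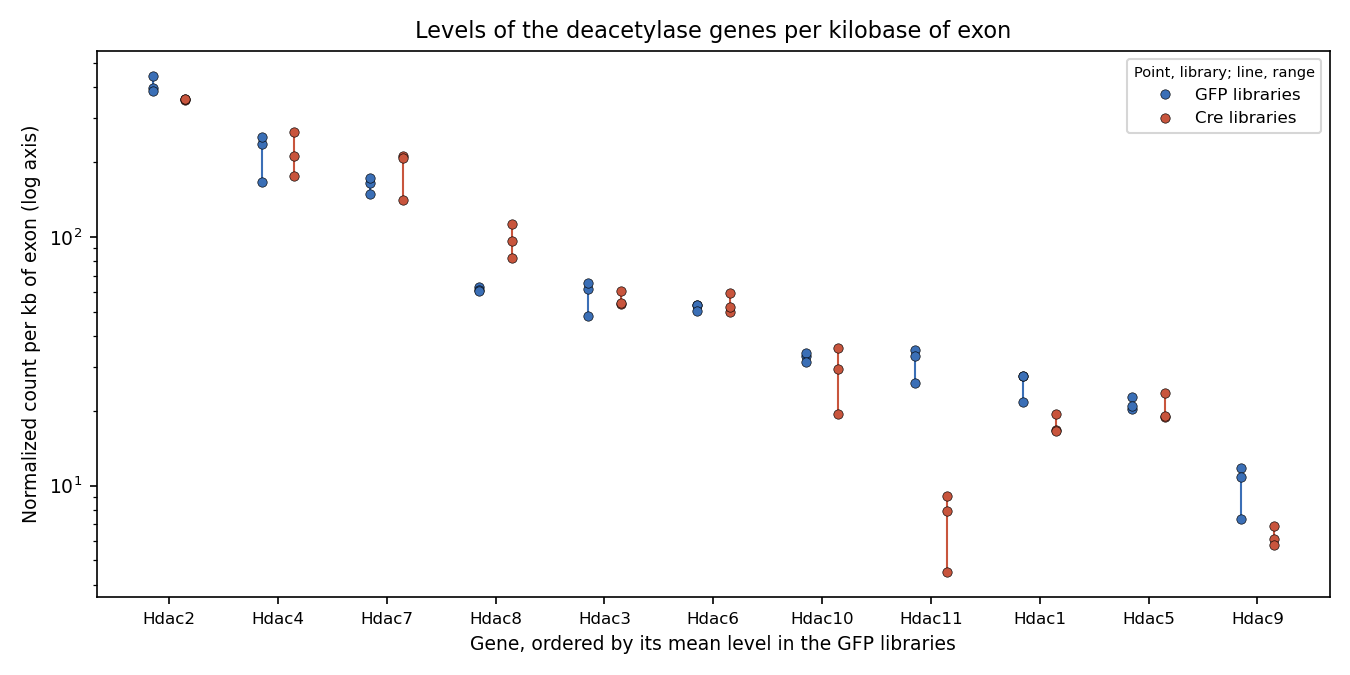
Normalized counts per kilobase of exon (log axis) for the 10 members and *Hdac3*, ordered by their mean in the libraries labelled GFP, with a point per library and a line over each group's range. *Hdac2*, *Hdac4* and *Hdac7* stand above the other members in every library, and *Hdac11* drops from 25.7 to 34.96 per kb to 4.47 to 9.07.

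By class, the make-up of the summed level per kb was close in both groups except for class IV. Class I made up 48.5% ± 3.05 (SD, n = 3) with GFP and 47.8% ± 3.59 with Cre, and class IIa 40.1% ± 3.35 and 43.2% ± 3.28. Class IIb made up 8.32% ± 0.599 and 8.24% ± 0.469. These differences were smaller than the spread between libraries. The shares are per kb of exon, and their size depends on the length used. They also depend on how reads that match both *Hdac1* and its copy were counted. Over all 6 libraries *Hdac2* had 384 normalized counts per kb of exon and 1176 per kb of coding sequence, beside 218 and 277 for *Hdac4*. Class IV, which is *Hdac11* alone, made up 2.68%, 3.25% and 3.19% in GFP 1, 1_1 and 2 and 0.900%, 0.442% and 0.833% in Cre 2, 2_2 and 3, without overlap. The median log2 fold change was -0.20 in class I, -0.03 in class IIa, -0.11 in class IIb and -2.14 in class IV. Class I held the gene that rose, *Hdac8*, beside *Hdac1* and *Hdac2* with values below 0. Within libraries the ratio of *Hdac8* to *Hdac11* reads, chosen after the values were seen, was 3.06, 2.20 and 2.29 with GFP and 13.1, 27.1 and 15.6 with Cre.

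**Figure D4:**
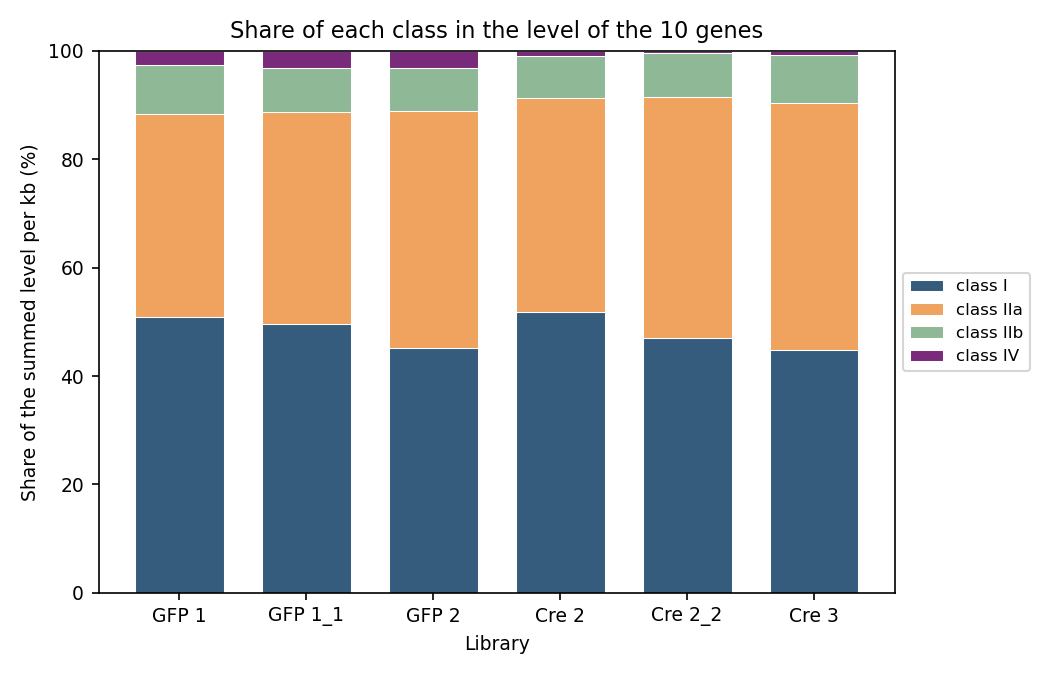
Share of each class in the summed level per kb of exon of the 10 members (*Hdac3* left out), as a stacked bar per library that adds up to 100%. The class IV segment is 2.68% to 3.25% in the libraries labelled GFP and 0.442% to 0.900% in those labelled Cre, and the other 3 segments vary within groups as much as between them.

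With limma, each complex list held 1 called gene or none, beside 9.96% of all tested genes. Lists of this size with 1 called gene or none say little about a difference from that share, and no difference was tested. Of 14 Sin3 complex genes, 1 was lower and 0 higher. This was *Ing2*, a reader of methylated histone H3, at -0.60 on the log2 scale (adjusted p = 0.0190, limma), and the median of the list was -0.22. Of 11 NuRD genes, 1 was higher and 0 lower, the chromatin remodeler *Chd3* at 0.66 (adjusted p = 0.0228, limma), and the median was -0.06. The calls of *Ing2* and *Chd3* were lost when GFP 1 and 1_1 were averaged or any 1 library labelled GFP was left out, and that of *Chd3* also without Cre 2_2 or Cre 3, with adjusted p from 0.0512 to 0.118 for *Ing2* and from 0.0520 to 0.114 for *Chd3*. Neither of the histone chaperones shared by both complexes passed, with *Rbbp4* at 0.03 and *Rbbp7* at -0.45 (adjusted p = 0.0523, limma). DESeq2 did call *Rbbp7*, and edgeR called neither. None of 11 CoREST genes (median -0.06, 2 at an unadjusted p under 0.05), 3 MiDAC genes (median -0.07, 0 at that p) or 6 NCoR/SMRT genes, *Hdac3* and *Tbl1xr1* among them (median 0.14, 2 at that p), passed with limma. On the recovered reads edgeR called 0 genes in all 3 of these lists, and DESeq2 called 0 CoREST, 0 MiDAC and 1 NCoR/SMRT gene. Over all tested genes, edgeR called 9.99% and DESeq2 11.8%, and 25.5% had an unadjusted p under 0.05 with limma.

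Of the 21 genes around the class IIa enzymes, 2 were higher and 2 lower, beside a median of 0.08 and beside 4.74% and 5.22% of all tested genes. The kinases gave both directions. *Camk1d* had 63.3, 83.4 and 93.4 normalized counts with GFP and 19.4, 19.8 and 16.1 with Cre (log2 fold change -2.05 ± 0.28, adjusted p = 0.00126, limma). *Camk2d* had 91.8, 136 and 108 against 229, 297 and 227 (1.16 ± 0.20, adjusted p = 0.00434, limma). Both kept their calls under every alternative that tested them. *Mef2c*, one of the transcription factors these deacetylases bind, was at 0.74 (adjusted p = 0.0454, limma). Its call was lost in 6 of 16 alternatives, the average of GFP 1 and 1_1 and the fits without any 1 library other than Cre 2 (adjusted p 0.0837 to 0.178). *Ywhah*, of the family of adaptors that hold phosphorylated class IIa enzymes in the cytoplasm, was at -0.64 (adjusted p = 0.0259, limma), and its call was lost in 5 of 16, with that average and without GFP 1, GFP 1_1, GFP 2 or Cre 3 (0.0522 to 0.144). The other 17 genes, among them *Mef2a*, *Mef2d*, *Sik1* to *Sik3* and *Prkd1* to *Prkd3*, did not pass.

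**Figure D5:**
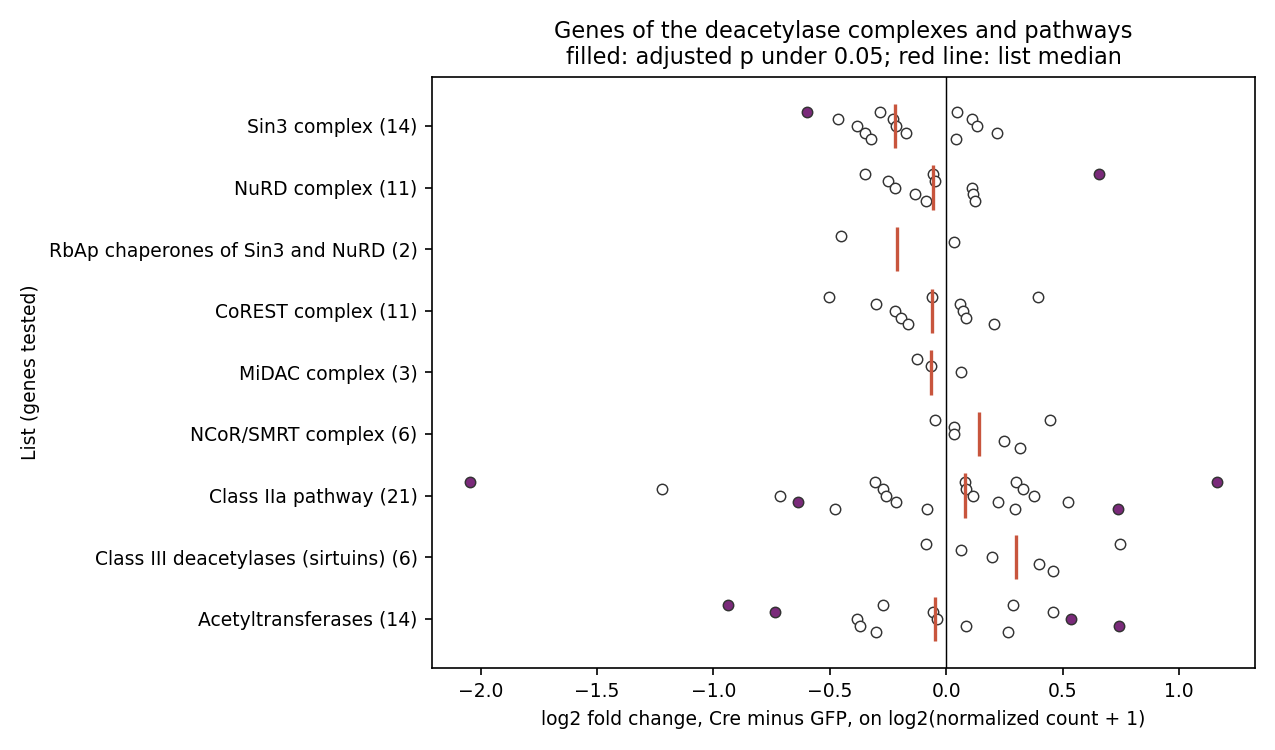
Log2 fold change (labelled Cre minus labelled GFP, on log2(normalized count + 1)) of each tested gene in 9 lists of deacetylase partners and related enzymes, with a red line at each list's median and filled points where the adjusted p is under 0.05. The points of Sin3, NuRD, CoREST and MiDAC lie between -0.60 and 0.66, and the class IIa list holds the widest values, from *Camk1d* at -2.05 to *Camk2d* at 1.16.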

How the data were processed

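RNA-seq of 6 NSC libraries was analysed. RNA was extracted with Trizol and libraries were made with an unstranded TruSeq kit. The study's methods name TopHat with mm9 and mm10, while the submitters' processing notes name STAR 2.7, mm10 and DESeq2. The counter and annotation are not given in the sources used here. The authors deposited normalized counts, a signal of read counts divided by DESeq2 size factors. The deposited table also holds the authors' own log2 fold changes with standard errors, a Wald statistic as a score, p-values and adjusted p-values, and the authors' mean signal, none of which was used. It has 53379 genes, 873 without a name and 1 left out for a missing value.

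Recovered from the lowest values, 100% of the values equalled a whole read number at a tolerance of 0.1. limma 3.58.1 (R 4.3.3, eBayes with trend) was run on log2(normalized count + 1) for 14840 genes with a mean of at least 10, so a fold change of a low gene is understated, with Benjamini-Hochberg adjustment at 0.05, two-sided. Intervals are 95% intervals from this fit. Alternatives were edgeR 4.0.16 (1483 genes called) and DESeq2 1.42.0 (1755) on recovered reads, pseudocounts of 0.5 and 5, no filter, a mean of at least 50, TMM and total scaling, averages of GFP 1 and 1_1 or Cre 2 and 2_2, an adjusted p under 0.1, and leaving out each library. Adding *Gm10093* to *Hdac1* was chosen after the data were seen. The tests were tested on simulated counts.

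The members and lists were chosen with earlier results of these data known. Named genes were all members, *Hdac3* and *Tbl1xr1*, at most 4 called genes per list of partners, the 3 genes most like the member with the smallest p, and genes that overlap or copy a member. *Rbbp4*, *Rbbp7*, members of the class IIa list that did not pass, *Sirt2*, *Sirt5*, cell type markers and neighbouring genes were named outside this rule. Positions and promoters are RefSeq's (GRCm38.p6), and lengths GENCODE M1's (mm9), which held 61.2% of the table's identifiers and 87.0% of the tested genes. Shared stretches were searched in mm9, whose coordinates are not given. Protein sequences were not analysed here.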

Additional observations from a re-analysis of the deposited data

How the results depend on the processing

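The number of genes called over the whole table was 1478. It was 660 with GFP 1 and 1_1 averaged and 2380 at an adjusted p under 0.1. With 1 library left out it ran from 558 (without GFP 1) to 2396 (without Cre 2), with 704 without GFP 1_1, 643 without GFP 2, 724 without Cre 2_2 and 1437 without Cre 3. Of the members, 1 (*Hdac11*) and not 2 were called with GFP 1 and 1_1 averaged, and from 1 to 2 with 1 library left out. Only *Hdac8* lost its call, with fewer samples in each such fit. *Hdac4*, *Hdac6* and *Hdac3*, which did not pass, changed sign in 6, 1 and 3 of 16 alternatives. The medians of class I and class IV kept their sign in all alternatives, while class IIa ran from -0.14 to 0.02 and class IIb from -0.24 to 0.04. The share of class IV fell by 2.31 percentage points per kb of exon and by 3.46 per kb of coding length. The ratio of *Hdac1* to *Hdac2* reads with Cre was 0.788 of that with GFP, and from 0.747 to 0.835 with 1 library left out. Other scalings moved the median of all genes by less than 0.1. The number called ran from 0 to 2 in the Sin3 list, from 0 to 1 in NuRD and CoREST, from 2 to 5 in the class IIa list, from 1 to 6 among acetyltransferases and from 2 to 8 among cycling genes. Depth limits *Hdac11* most, at 20 to 44 reads in the libraries labelled Cre. No paired analysis was possible because the groups share only replicate number 2.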

Other observations

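The enzymes that add acetyl groups, and the NAD-dependent deacetylases, were measured in the same libraries. Of 14 genes on a list of acetyltransferases, 2 rose and 2 fell with Cre, beside a median change of -0.05 on the log2 scale and beside 4.74% and 5.22% of all tested genes. Of the 2 that fell, 1 (*Naa10*) is best known for acetylating protein N-termini and not lysines. *Atat1*, the tubulin acetyltransferase whose mark *Hdac6* removes, had 199, 183 and 236 normalized counts in the libraries labelled GFP and 313, 339 and 381 in those labelled Cre (0.74 ± 0.16, SE, adjusted p = 0.0136, limma, n = 3 and 3). All 3 libraries labelled Cre were higher, while the values of *Hdac6* overlapped between the groups. *Kat6b*, of the MYST family, was at 0.54 (adjusted p = 0.0432). *Kat2a*, the acetyltransferase of the SAGA coactivator, had 247, 287 and 285 against 180, 157 and 154 (-0.74 ± 0.15, adjusted p = 0.0132, limma). *Naa10*, the catalytic subunit of the main N-terminal acetyltransferase, had 459, 418 and 415 against 222, 192 and 263 (-0.94 ± 0.15, adjusted p = 0.00384, limma), and kept its call in all 16 alternatives. *Kat2a* was called in 13 of 16, *Atat1* in 12 and *Kat6b* in 11, and each lost its call in fits with 1 library left out, *Kat2a* without GFP 1_1, GFP 2 or Cre 2_2, *Atat1* without GFP 1, GFP 1_1 or Cre 2_2, and *Kat6b* without GFP 1, GFP 2, Cre 2_2 or Cre 3.

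Of 7 sirtuin genes, 6 were tested and none passed with limma, edgeR or DESeq2. Of these, 5 had log2 fold changes above 0, as did 7403 of all 14840 tested genes. An unadjusted p under 0.05 (limma) was found for 1 of them, and for 25.5% of all tested genes. Their median was 0.30, beside -0.0010 over all tested genes. *Sirt2* was at 0.46 (adjusted p = 0.0715, limma) and *Sirt5* at 0.75 (adjusted p = 0.237, limma). Without Cre 3, *Sirt2* passed as higher with Cre (adjusted p = 0.0268, limma).

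The genes next to *Hdac11*, *Hdac8* and *Hdac10* gave these values, and *Hdac10* was added after its neighbours' values were seen. *Fbln2*, which lies 37768 bases beyond *Hdac11*, was at 1.31 ± 0.14 (adjusted p = 0.000282, limma), opposite in direction to *Hdac11*, and *Nup210* on its other side, 38348 bases away, was at 0.16 (adjusted p = 0.563). *Phka1*, 8594 bases from *Hdac8*, was at 0.39 (adjusted p = 0.164) and *Cited1*, 32457 bases from it, at -0.81 (adjusted p = 0.109). *Mapk12*, 1884 bases from *Hdac10*, was lower at -1.05 ± 0.18 (adjusted p = 0.00462, limma) and *Tubgcp6*, 95 bases from it on the other side, was at -0.28 (adjusted p = 0.348), beside -0.27 for *Hdac10* itself.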
